A study of Arabidopsis thaliana with 6 samples.

Results

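JAGGED (JAG) is a C2H2 zinc finger protein of Arabidopsis thaliana that promotes the growth of lateral organs such as leaves, sepals and petals. The sites described here are those where JAG was found repeatedly inside protein-coding genes rather than between them. They come from 3 lists of JAG binding peaks. Peaks sharing 1 bp or more were joined into regions, and regions with a peak in every list were kept. Each list's best-scoring peak in a region gave a summit, its position of maximal signal, and the middle one of these 3 positions was taken as the summit of the region. Of 3683 merged regions, 869 (23.6%) recurred in all 3 lists, and 230 of these (26.5%, 95% Wilson interval 23.6 to 29.5%) had their summit inside a protein-coding gene. The other recurrent regions were 411 with a summit outside genes but within 1000 bp of one, and 228 farther away. Recurrence, summit position and scores all come from the peaks that chose the regions, so they are described here without a test.

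The tested plants carried the jag-2 mutation and a genomic JAG-GFP fusion under the JAG promoter (JAG:JAG-GFP), which places a green fluorescent protein tag on JAG. The reference plants were wild type, of the line given as L-er, and carried no tag. All plants had 16 h of light and 8 h of dark. Chromatin from inflorescence tips with unopened buds was precipitated with anti-GFP beads in 3 JAG-GFP and 3 wild-type samples. The labels do not say whether the numbered replicates came from separate sets of plants, so recurrence across lists may be technical.

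Transcription factors in plants often bind upstream of the genes they control, but sites within introns and close to either end of the transcribed region are also common. Enhancers in introns are known for several floral and meristem genes. JAG is known as a repressor that acts on cell cycle inhibitors and on organ patterning genes in young petals. The gene table used here has no strand, so an end of a gene is called an end, without saying whether it is the start or the finish of transcription.

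The lists held 2620, 2143 and 2127 peaks for replicates 1, 2 and 3, and each peak carries a score that the authors deposited, used here to describe and rank peaks. No source used here states its scale, whether wild-type reads entered it, or the read depth. Whether scores compare between lists is therefore unknown, and differences between lists are described only. The wild-type samples have no peak list of their own among the files used. The list of replicate 3 ended on chromosome 1 at position 23827070, and peaks past that point were left out. Intervals on shares cover counting error only.

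The highest-scoring gene-body sites included the cell cycle inhibitor gene KRP4 and several genes without a symbol in the gene table. AT5G40540, one of those without a symbol, held the region with the highest mean score among the recurrent regions (chromosome 5, 16236441 to 16238192). Its scores were 7.84, 7.42 and 8.77 in lists 1, 2 and 3, and its summit lay 404 bp inside the gene. KRP4 (AT2G32710), which encodes an inhibitor of cyclin-dependent kinases, ranked 2nd by mean score among gene-body and among all recurrent regions, and was the higher of the pair in list 3 (chromosome 2, 13875119 to 13877319). The KRP4 region scored 7.44, 7.22 and 9.07 in lists 1, 2 and 3. Its summit lay 809 bp inside KRP4 and also 116 bp inside CB5-B (AT2G32720), a cytochrome b5 gene that overlaps KRP4 in the table. Both regions stood apart from the rest, as every other gene-body region scored at most 4.37, 5.28 and 6.86.

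Those next highest values belonged to AT2G22530 (chromosome 2, 9577008 to 9578763). Its summit lay only 10 bp inside the gene, on the side of SVP, a MADS-box repressor of flowering whose nearer end was 2041 bp away. RLK (AT5G67280), named as a receptor-like kinase, scored 4.36, 4.87 and 5.27, with the summit 1074 bp from the nearer gene end (chromosome 5, 26841218 to 26844662). IP5PII (AT4G18010), an enzyme that removes phosphate from inositol polyphosphates, scored 3.78, 4.15 and 5.96 (chromosome 4, 9993670 to 9994918). TPPI (AT5G10100), which dephosphorylates the sugar signal trehalose-6-phosphate, scored 3.89, 4.11 and 4.96 (chromosome 5, 3160491 to 3161529). AT2G22530, RLK, IP5PII and TPPI each had their highest score in list 3 and their lowest in list 1. List 3 also had the highest median over all gene-body regions, so its higher scores are not particular to these genes.

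AN3 (AT5G28640), also called GIF1, encodes a co-activator that works with growth-regulating factors to keep leaf cells dividing, and it held the 10th highest gene-body region. That region scored 3.40, 3.66 and 4.16 with the summit 1193 bp inside the gene (chromosome 5, 10648309 to 10649228). Below it came KCS13 (AT2G46720), an enzyme of very-long-chain fatty acid synthesis, with 3.22, 3.58 and 3.91. BLH2 (AT4G36870), a BELL homeodomain factor of the leaf margin also known as SAWTOOTH 1, scored 3.72, 3.32 and 3.45 (chromosome 4, 17370688 to 17373660). WRKY7 (AT4G24240), a WRKY transcription factor, scored 2.88, 3.42 and 3.78. PLL5 (AT1G07630), a phosphatase related to POLTERGEIST, scored 2.91, 3.00 and 4.11. FD (AT4G35900), the bZIP partner of the flowering signal FT, scored 2.96, 2.67 and 3.94.

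The 25 highest gene-body regions closed with CSLA01, HA2, HA1 and AT4G37250. CSLA01 (AT4G16590), of a family of mannan synthases, scored 2.33, 3.42 and 3.75, the widest relative gap between lists among those 4. HA2 (AT4G30190) and HA1 (AT2G18960), the main proton pumps of the plasma membrane, had nearly equal values, with 2.97, 3.13 and 3.39 at HA2 and 3.03, 3.13 and 3.26 at HA1. The other regions among the 25 were at genes without a symbol: AT1G01570, AT3G61950, AT4G22730, AT2G44830, AT1G14430, AT1G25510, AT5G02230, AT1G50280 and AT1G05370. Of these, AT1G01570 was the highest, with 4.01, 3.52 and 5.02, and AT1G05370 was the lowest, with 2.53, 3.54 and 3.56.

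**Figure D1:**
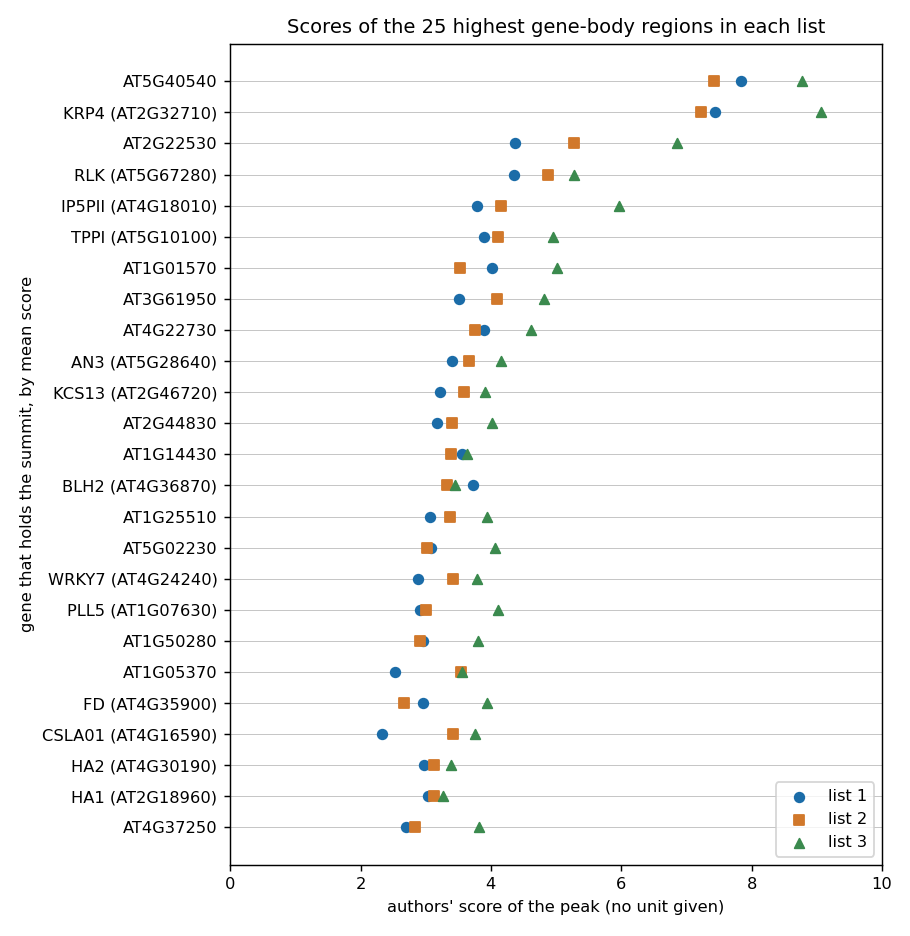
Authors' scores (no unit given, horizontal axis) of the 25 gene-body regions with the highest mean score, one row per region named by the gene that holds the summit. Each symbol is one list (circle list 1, square list 2, triangle list 3); AT5G40540 and KRP4 lie above 7 in every list, and all other regions lie below.

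Beyond these, scores fell off quickly. Of the 230 gene-body regions, 31 had a mean score of at least 3, and the median of the mean score was 2.365. Medians were 2.29, 2.29 and 2.53 in lists 1, 2 and 3 for gene-body regions. Flanking regions had 2.26, 2.28 and 2.46, and regions beyond 1000 bp had 2.31, 2.40 and 2.63. The ranges between the quartiles overlapped in list 1, at 2.09 to 2.61 for gene-body, 2.07 to 2.55 for flanking and 2.10 to 2.69 for distal regions. List 3 gave the highest score at 116 gene-body regions, list 2 at 55 and list 1 at 54. Its medians were the highest in flanking and distal regions too. Over all peaks of lists 1, 2 and 3, the highest scores were 14.54, 16.96 and 9.07. Those of lists 1 and 2 lay outside the recurrent regions, so the ranking here does not reach the top of these lists. The lowest scores of lists 1, 2 and 3 were 1.86, 1.89 and 1.87, and the medians 2.04, 2.08 and 2.12. Scores of about 2, here and below, therefore lie close to the lowest that each list holds. At the low end, RABA4a (AT5G65270), a small GTPase of membrane traffic, scored 1.93, 1.89 and 1.90, and LAX2 (AT2G21050), an auxin importer, scored 1.87, 2.02 and 1.87. The other 3 of the 5 lowest were AT5G39785, the 14-3-3 gene AT2G42590 and PEL3 (AT5G23940), known for cuticle formation.

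The share of summits inside genes was lowest among regions found in every list. For regions in 2 lists the summit was the midpoint of the 2 summits, and for regions in 1 list the single summit. The summit is thus not defined alike in the 3 groups. It was 26.5% of 869 regions in all 3 lists, 33.2% of 811 regions in 2 lists (30.0 to 36.5%) and 42.1% of 2003 regions in a single list (39.9 to 44.3%). Regions beyond 1000 bp went the other way, at 26.2%, 17.8% and 13.9% of regions in 3, 2 and 1 lists, and flanking regions stayed between 44.0% and 49.1%. Within the recurrent regions, the share in gene bodies showed no steady order with score: in 5 groups of equal size in falling order of mean score it was 24.7%, 26.4%, 27.7%, 21.8% and 31.6%. The intervals of all 5 overlapped, also those of the lowest and the highest share, 16.3 to 28.5% and 25.2 to 38.9%. Gene bodies held 23.4% to 28.7% of the recurrent regions of each chromosome. Of all peaks used in lists 1, 2 and 3, 33.5%, 33.8% and 32.3% had their summit in a gene body. None of these shares was set against the share of the genome that lies in genes.

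**Figure D2:**
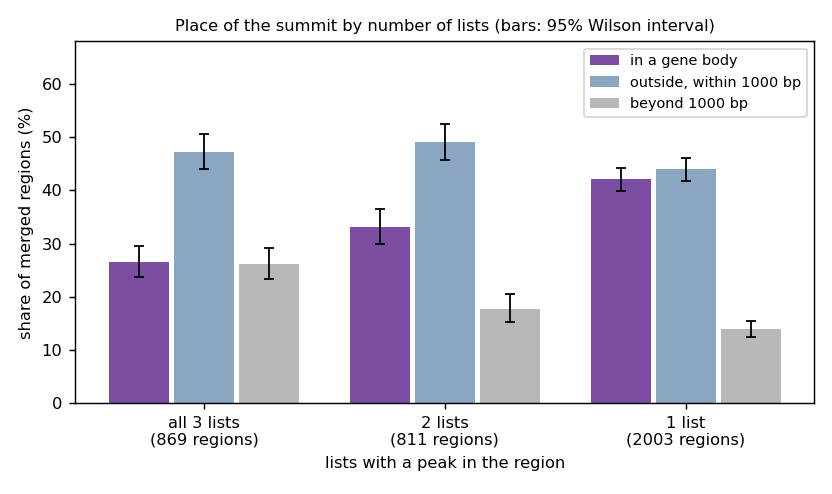
Share of merged regions (vertical axis, percent) whose summit lay in a gene body, outside genes within 1000 bp, or beyond 1000 bp, for regions with peaks in 3, 2 or 1 lists; error bars are 95% Wilson intervals. The gene-body share is 26.5%, 33.2% and 42.1% from left to right.

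Inside genes, the summits gathered at the ends. They lay within 200 bp of an end of the gene in 96 of 230 regions, between 200 and 500 bp in 33, and farther than 500 bp in 101. Where 2 overlapping genes held a summit, the gene in which it lay deeper was used. The KRP4 summit thus counts among the deeper ones, although it was 116 bp from an end of CB5-B. With each gene cut into 10 equal parts, the part at one end held 53 summits and that at the other end 50. Together these are 44.8% of all summits, where an even spread along genes would put 20%. Each of the 8 inner parts held 12 to 21. The crowding went on past the gene border. Within 100 bp of a gene end there were 55 summits inside and 68 outside, and within 200 bp there were 96 inside and 124 outside. Counted per 100 bp, the summits were fewer farther in, with 7 at 600 to 700 bp inside the gene. There were 15 at 800 to 900 bp and 14 at 900 to 1000 bp inside. Short genes have no bases so deep, and the counts by distance were not set against the gene sequence available at each distance.

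**Figure D3:**
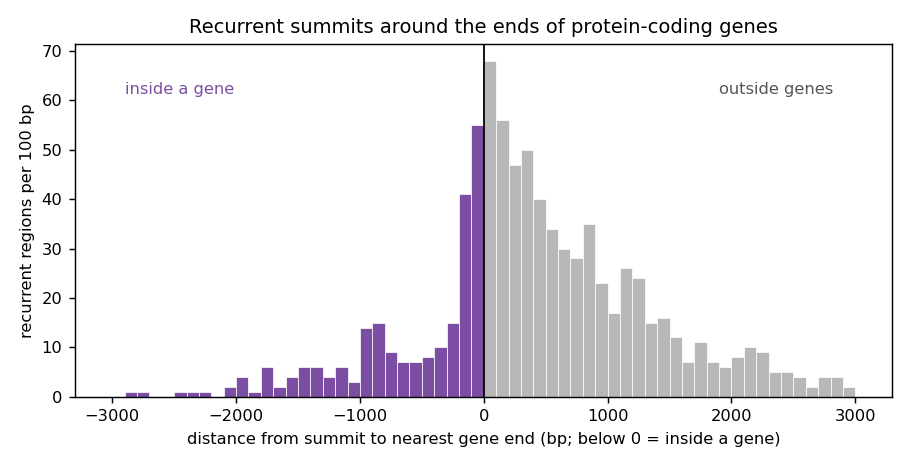
Number of recurrent regions per 100 bp (vertical axis) by distance from the summit to the nearest end of a protein-coding gene (horizontal axis, bp; below 0 is inside a gene, above 0 outside). Counts are highest on both sides of the gene end, and inside genes the bars at 800 to 1000 bp are taller than their neighbours. For a summit in overlapping genes, the distance is that in the gene in which it lay deeper.

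The border of the set is therefore drawn through a dense stretch. The members closest to it were TGA9, a bZIP factor of anther development, with a summit 1 bp inside and scores of 2.21, 2.05 and 2.55, PLL5 at 5 bp, and RUP2, a repressor of the UV-B response, also at 5 bp with 2.08, 2.45 and 2.83. Just outside were SOS5 at 1 bp with 2.12, 2.55 and 2.61, STOMAGEN, a secreted peptide that promotes stomata, at 4 bp with 2.15, 2.82 and 2.75, and AT3G56480 at 5 bp with 2.09, 2.09 and 2.23. The scores on both sides of the border overlapped.

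Summits of different lists were close enough to place most sites. The summits of lists 1 and 2 lay a median of 77.5 bp apart in gene-body regions, those of lists 1 and 3 64 bp, and those of lists 2 and 3 52 bp. All 3 summits fell within 100 bp of each other in 108 regions (47.0%) and spread over more than 1000 bp in 18. The 3 summits were at the same base in HA1, AT1G05370 and AT3G22800, and within 2 bp in CSLA01 and AT1G01570. The widest spreads, 2740 to 4058 bp, were at AT1G12320, ACT11 (an actin gene), IAA16, SEP3 and ATTPPA, so the place of those sites in the gene is uncertain. In 174 of the 230 regions all 3 summits lay in the same gene. These were 92 of the 101 regions deeper than 500 bp, and 52 of the 96 within 200 bp of an end, among others. Near an end a smaller shift takes a summit out of the gene, so this contrast is partly built in.

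The peaks themselves were usually wider than the distance to a gene end. Regions had a median width of 1705 bp, against 1827 bp for flanking and 1520 bp for distal regions. Only 58 lay wholly inside the gene, 156 reached past one end and 16 past both. None of the 96 regions with the summit near an end stayed inside the gene, against 56 of the 101 deeper ones. A region reaches past an end more readily when its summit lies near that end, so this contrast is partly built in. The nearest other protein-coding gene was within 1000 bp of the summit in 55 regions (23.9%), of which 38 had the summit near an end and 6 deeper than 500 bp. The median distance to the next gene was 2507 bp for summits deeper than 500 bp and 1321.5 bp for those near an end. Unless genes overlap, a summit is farther from any other gene than from the nearer end of its own. The contrast in distance to the next gene is therefore also partly built in.

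Genes with a gene-body summit had a median length of 2892 bp, and all 25680 tested genes had a median of 2076 bp. If every base of every tested gene counted alike, the median base would lie in a gene of 2910 bp, which is close to the value for the genes with a summit. Genes under 1000 bp made up 3.88% of the genes with a summit and 16.2% of all tested genes. The deepest sites were at AT3G52700 (2891 bp from the nearer end), AT5G10540 (2743 bp), CSLA02 (2472 bp), KAN2 (2344 bp) and AT4G02940 (2216 bp). The summits of AT3G52700 and AT5G10540 also lay in an overlapping gene each. There they were 506 bp from an end of AT3G52710 and 313 bp from an end of AT5G10530.

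Non-coding genes were rare at these sites. A non-coding gene or pseudogene also spanned the summit in 8 gene-body regions (3.48%), of which 7 were long non-coding RNA genes, in 12 flanking regions (2.92%) and in 24 distal regions (10.5%).

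The 230 regions touched 232 genes, because 6 summits lay in overlapping genes and 4 genes held a pair of regions. These 232 genes are 0.903% of the 25680 tested, which is the background for the counts of genes that follow. Besides KRP4 with CB5-B, the overlapping genes were FBS2 with AT4G21515, AT1G21740 with AT1G21738, AT3G52700 with AT3G52710, AT4G18840 with OFP5, and AT5G10540 with AT5G10530. At these, both genes are counted.

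AN3, BEL1, FLA8 and RLP29 each held a pair of recurrent regions. The second region of AN3 lay 1134 bp from the first and 59 bp from the gene end, and scored 2.26, 2.84 and 3.20 (chromosome 5, 10649739 to 10650322). There the summit of list 1 fell just past the gene end, while those of lists 2 and 3 were inside. BEL1 (AT5G41410), a BELL homeodomain factor of ovule integuments, had a deep region with 2.91, 2.79 and 2.50 (chromosome 5, 16581455 to 16583958). Another at its end, 2731 bp away, scored 2.37, 2.50 and 2.51 (chromosome 5, 16579462 to 16581245), and there the summit of list 2 fell just outside the gene. FLA8 (AT2G45470), a fasciclin-like arabinogalactan protein of the cell surface, had a region at each end, with 2.76, 1.95 and 2.03 at one and 2.09, 2.26 and 2.01 at the other. RLP29 (AT2G42800), a receptor-like protein, likewise had one at each end, with 2.01, 2.22 and 2.34 at one and 2.15, 2.10 and 1.94 at the other. At the last of these the summit of list 1 lay outside the gene.

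**Figure D4:**
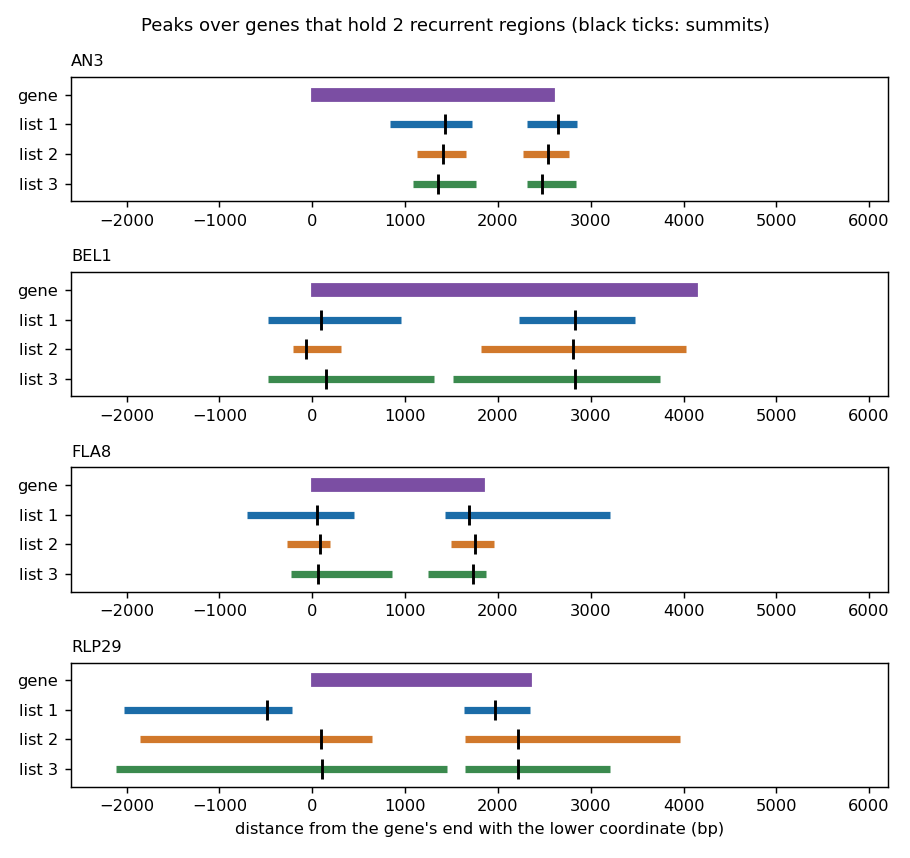
Peaks of each list (coloured bars, black ticks at the summits) over the 4 genes that held a pair of recurrent regions, as distance in bp from the gene's end with the lower coordinate; the purple bar is the gene. AN3 and BEL1 have one site deep in the gene and one at an end, whereas FLA8 and RLP29 have one at each end.

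The genes were also read against 16 lists of known roles, 14 of them developmental. Of 157 tested genes of the developmental lists, 13 (8.28%) held a gene-body summit, against 0.903% of all genes. These lists were drawn up with earlier results of these data known, so this contrast is a description only. Counting recurrent summits up to 3000 bp away as well, 53 of the 157 genes had one, against 6.24% of all tested genes.

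Among growth and cell cycle genes, KRP4 was the 1 of 10 cell cycle inhibitors with a gene-body summit. CYCD3;2 (AT5G67260), a D-type cyclin that promotes cell division, was the 1 of 14 cyclins and cell cycle kinases, with 2.04, 2.30 and 1.95 (chromosome 5, 26837500 to 26839270). AN3 and GRF8 (AT4G24150), a growth-regulating factor, were the 2 of 12 growth-regulating factors and co-activators, and GRF8 scored 2.15, 2.55 and 3.29 (chromosome 4, 12535175 to 12537198). BRC1 (AT3G18550), a TCP factor that restrains branching, was the 1 of 12 TCP factors in the list, with 1.98, 2.08 and 1.97.

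Among floral and flowering genes, LFY (AT5G61850), the factor that sets floral meristem identity, held a region 957 bp inside the gene that scored 2.42, 2.44 and 2.35 (chromosome 5, 24845280 to 24846744). The 3 LFY scores were close to each other. SEP3 (AT1G24260), a MADS-box factor needed for petals, stamens and carpels, scored 2.34, 3.10 and 2.85 (chromosome 1, 8594670 to 8599626). The SEP3 summit lay 24 bp inside, but those of the 3 lists spread over 2797 bp and did not all lie in the gene. LFY and SEP3 were the 2 of 16 floral identity genes, and FD was the 1 of 8 flowering-time genes. SVP and FLC, both MADS-box repressors of flowering, had no gene-body summit but stood beside genes that did. The region beside FLC lay in AT5G10150, 2620 bp from FLC, with 3.31, 2.78 and 3.15.

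Organ patterning and meristem genes were represented by KAN2 and RPL. KAN2 (AT1G32240), a factor of the lower organ side, was the 1 of 13 polarity genes, with 2.04, 1.98 and 2.90 (chromosome 1, 11627732 to 11629749). RPL (AT5G02030), the BELL factor also called PENNYWISE that acts in the shoot meristem and in fruit, was the 1 of 11 shoot meristem genes. RPL scored 2.26, 2.72 and 3.75 at 1264 bp inside the gene (chromosome 5, 396902 to 398342). No gene of the boundary list (9 tested), the gibberellin list (11), the co-repressor and chromatin list (12) or the list of JAG-related zinc fingers (6) held a gene-body summit. A recurrent summit within 3000 bp was found at 3 boundary, 3 gibberellin, 2 co-repressor and 2 zinc finger genes.

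Hormone genes included transport, synthesis and breakdown. AUX1 (AT2G38120), which carries auxin into cells, and PIN7 (AT1G23080), which carries it out, were the 2 of 13 auxin genes. AUX1 scored 2.31, 3.36 and 3.50 with summits spread over 1240 bp, and PIN7 scored 2.12, 2.33 and 2.82 (chromosome 1, 8180590 to 8182064). ARR7 (AT1G19050), a repressor of the cytokinin response, was the 1 of 10 cytokinin genes, with 2.64, 2.00 and 2.23. GA2OX8 (AT4G21200), which inactivates gibberellin, and CKX7 (AT5G21482), which degrades cytokinin, were not in those lists. GA2OX8 scored 2.53, 2.63 and 2.76, and CKX7 scored 2.66, 2.11 and 2.88. None of the 11 photosynthesis genes and none of the 11 housekeeping genes held a gene-body summit, and at a background of 0.903% none is near what lists of that size would hold.

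Names in the gene table allowed a wider reading. A symbol was given for 53.4% of the genes with a gene-body summit and for 37.6% of all tested genes, and 1.28% of the genes with a symbol held such a summit. Names with transcription factor terms held one in 19 of 681 genes (2.79%), cell wall terms in 7 of 236 (2.97%), hormone terms in 6 of 269 (2.23%), and transporter terms in 8 of 515 (1.55%). Kinase terms did so in 3 of 521 (0.576%), one of which was KRP4, named for the kinases it inhibits, and ubiquitin terms in 2 of 222 (0.901%). ER, the ERECTA receptor kinase gene, also held a gene-body summit but was not caught by the kinase terms. The kinase share is therefore one of names, not of all kinase genes. No gene named for RNA binding or splicing (72), ribosomal proteins (61) or photosystems (48) held one. Among genes whose table name held a transcription factor term, the highest mean scores were at BLH2, WRKY7, the zinc finger gene ZFP7 (AT1G24625), the Dof factor gene OBP4 (AT5G60850) and RPL. ZFP7 scored 2.87, 2.11 and 3.98, and OBP4 scored 2.33, 2.77 and 3.78.

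Some related genes were found together. In 21 families, picked after the genes had been seen because at least 2 members held a gene-body summit, 46 genes did so in 47 regions. The choice fixes these counts, so no share is read from them. The BELL homeodomain family had 4 of 11 tested genes, BEL1, BLH2, BLH4 and RPL. BLH4 (AT2G23760), the SAWTOOTH partner of BLH2, scored 2.09, 2.18 and 3.05 at 2034 bp inside the gene. The deep regions of all 4 BELL genes lay at 1264 to 2034 bp from the nearer end, with the additional end region at BEL1.

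The phytochrome-interacting factors, which promote elongation growth in the dark and in shade, had 3 of 7 genes: PIL5, also called PIF1, with 2.85, 3.41 and 2.95, PIL6 with 2.22, 2.17 and 2.15, and PIF4 with 1.87, 2.17 and 2.06. Their summits lay 197 to 394 bp from a gene end. BES1 and BEH3, transcription factors of the brassinosteroid response, were 2 of 4 tested genes, with 1.93, 2.67 and 2.25 at BES1 and 2.30, 1.90 and 2.34 at BEH3. CPD (AT5G05690), an enzyme of brassinosteroid synthesis, and BAS1 (AT2G26710), which inactivates brassinosteroids, were 2 of 9. CPD scored 2.37, 2.78 and 3.05 at 2017 bp inside the gene, and BAS1 scored 2.31, 2.78 and 2.66 at 1158 bp. HB4 and HAT3, class II homeodomain-leucine zipper factors of organ polarity and shade growth, scored 2.60, 2.60 and 3.47 and 2.09, 2.48 and 3.15.

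Among enzymes and transporters, LOG3 and LOG6, which release active cytokinin, were 2 of 9 LOG genes, with 2.85, 2.82 and 2.64 at LOG3 and 2.17, 2.14 and 2.17 at LOG6. Their summits lay 1026 and 999 bp inside. CSLA01 and CSLA02 were 2 of 9 mannan synthase genes, and CSLA02 scored 2.54, 3.06 and 2.87. The proton pump genes HA1 and HA2 were 2 of 10. The aquaporin genes PIP2E and PIP3 were 2 of 13, with 2.17, 2.22 and 2.44 at PIP2E and 2.95, 2.63 and 2.13 at PIP3. The PIP3 summits spread over 1970 bp and did not all lie in the gene. XTH28 and XTH7, which remodel xyloglucan in the wall, were 2 of 32 and lay 887 and 970 bp inside. PLL5 and PLL4 were 2 of 6 and lay 5 and 32 bp from a gene end.

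All regions lay deeper than 500 bp in 6 of the 21 families (CSLA, LOG, XTH, auxin importers, brassinosteroid enzymes and proton pumps). All lay within 200 bp of an end in 6 (Aux/IAA, IQD, NF-YA, PLL, TCP and potassium permeases), and the other 9 were mixed. Apart from the BELL, IQD and phytochrome-interacting factor families, each family had only 2 regions. Of all 230 gene-body regions, 101 lay deeper than 500 bp and 96 within 200 bp of an end. No family pattern is therefore read from these counts.

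**Figure D5:**
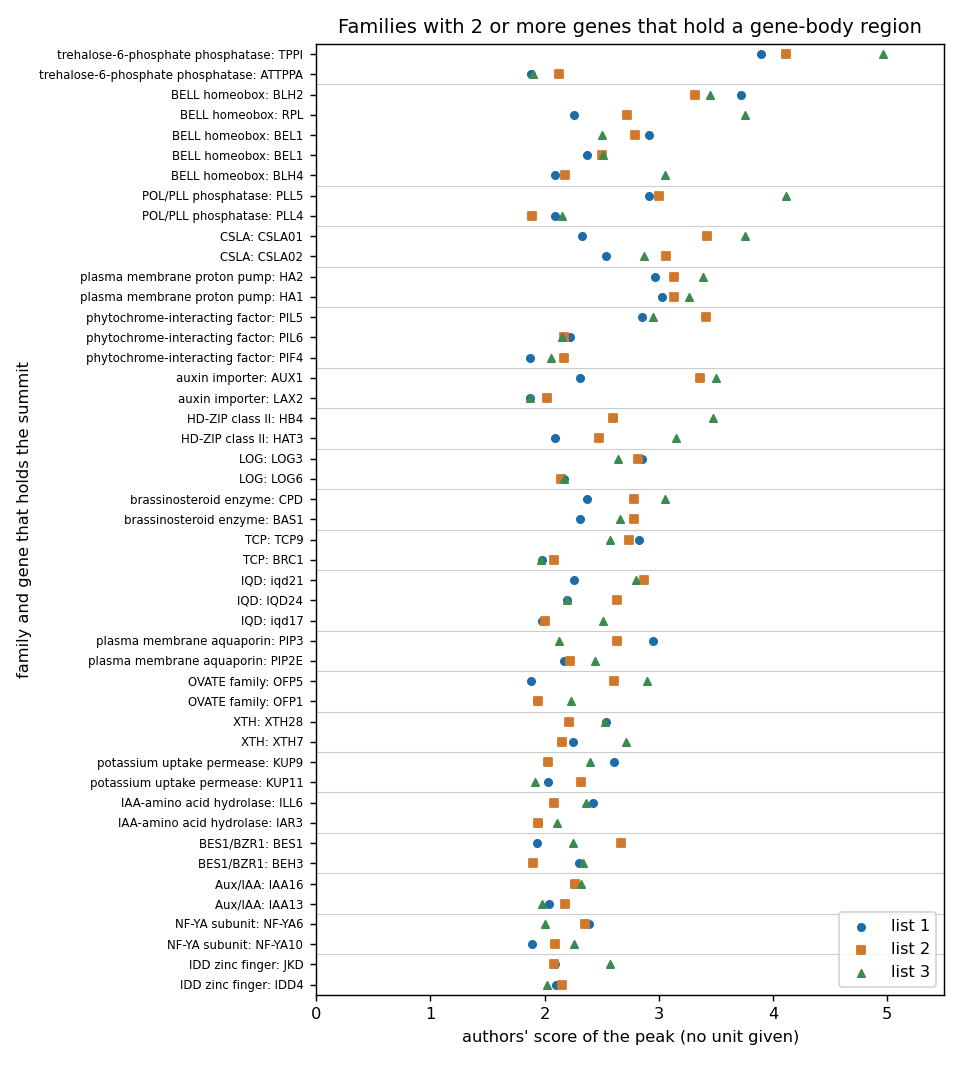
Authors' scores (no unit given, horizontal axis) of the gene-body regions in 21 gene families with at least 2 such genes, one row per region, grouped by family; circle list 1, square list 2, triangle list 3. TPPI is highest in lists 1, 2 and 3, and both proton pump genes HA2 and HA1 lie near 3 in every list.

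A few other genes of organ growth and signalling were chosen after their values were seen. TPD1 (AT4G24972), a small secreted protein that specifies the anther tapetum, scored 2.09, 2.82 and 3.25 at 1323 bp inside the gene. YUC6 (AT5G25620), an auxin synthesis enzyme, scored 2.33, 2.85 and 2.33 at 39 bp from the gene end. SPL11 (AT1G27360), an SBP-box factor, scored 2.72, 3.15 and 2.94. ER (AT2G26330), the ERECTA receptor kinase of organ growth, scored 2.55, 2.40 and 2.69 at 378 bp inside the gene. BRXL4 (AT5G20540), related to BREVIS RADIX, scored 2.31, 3.02 and 2.80 at 1950 bp inside. In each of these the 3 lists lay above 2, a value close to the lowest score of each list (1.86, 1.89 and 1.87).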

How the data were processed

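Anti-GFP chromatin immunoprecipitation was done on 3 JAG-GFP and 3 wild-type samples. Per the submitters' processing notes, CASAVA 1.8 was used, and the build was TAIR10. No source used here names the peak caller, its threshold or its control. Per the file headers, each list the authors deposited gives start, end, width, summit and a score. The lists hold 2620, 2143 and 2127 peaks, of which 2376, 1960 and 2127 were used.

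Peaks were merged in Python 3.11.15 (pandas 2.3.3, scipy 1.17.1) and placed in the gene spans of the RefSeq table of TAIR10.1, whose coordinates are not printed. That nuclear positions match TAIR10 was not checked. Of 27444 nuclear protein-coding genes, the 25680 outside the left-out end of chromosome 1 were tested. With 2 genes at a summit, distances refer to the gene in which it lay deeper. Merging was tested on simulated peaks whose sites lay far apart, so long chains of overlapping peaks were not covered. Named are the 25 highest-scoring regions, list genes with a gene-body summit, genes with a pair of regions, overlapping genes, border cases, the extremes of score and summit spread, and up to 5 genes per name class; others are said to be chosen after their values were seen. Clone names were left out of the search for name terms. Regions, lists and alternatives were chosen with earlier results of these data known. The planned position from the gene start and sequence motifs were not analysed here, because no strand and no sequence were used.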

Additional observations from a re-analysis of the deposited data

Results flagged for a closer look

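List 3 holds no peak on chromosome 1 beyond base 23827070, but lists 1 and 2 do, and these peaks, part of the totals of 2620 and 2143, were left out of all counts of regions and genes above. They are given because they hold gene-body regions of their own. Of 114 regions that both lists share there, 34 (29.8%, 95% Wilson interval 22.2 to 38.8%) had the summit in a gene body. The highest was in NRT1:2 (AT1G69850), a nitrate transporter gene, with scores of 3.70 and 4.18 (chromosome 1, 26298763 to 26299876).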

How the results depend on the processing

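Of 64 values recomputed over 8 alternatives, 50 stayed within 1.5 times the count or within the 95% interval of the share or median. With the highest-scoring 50% of each list, 128 regions in 129 genes remained, 34.4% of summits lay within 200 bp of a gene end (41.7% before), and the median mean score was 2.66. With the midpoint of the region as summit, 29.9% of recurrent regions were in gene bodies and 35.4% of summits lay within 200 bp of an end, and 177 of the 232 genes were kept. With all nuclear gene types the share was 30.6% and the median gene length 2605 bp. When each list was left out in turn, a region needed a peak only in both remaining lists. This gave 290 to 335 regions, 293 to 337 genes, and median mean scores of 2.215 to 2.27, against 2.365. Asking for fewer lists, or keeping only high scores, changes what is selected, so those shifts are partly built in. The cause of the other shifts was not tested. Requiring all 3 summits in the same gene left 174 regions, or 20.0% of recurrent regions, with a median of 610.5 bp to the nearer gene end (325 bp before) and 29.9% of summits within 200 bp of an end. Of the 26 genes at the 25 highest regions, 20 were kept with the midpoint, 23 with all summits in the same gene, 25 without list 3, and 26 in the other settings.

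No paired analysis was possible because the results come from peak lists and from no test between JAG-GFP and wild-type samples. The share of summits on the side of the gene start was not run, for want of a strand. The unknown depth and the number of peaks limit the precision.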

Other observations

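The next regions of that stretch by mean score were in BBX21 (AT1G75540), a B-box factor of the light response, with 2.98 and 3.41 in lists 1 and 2, AT1G72210 with 3.03 and 2.87, and ABCG25 (AT1G71960), an abscisic acid exporter, with 2.69 and 2.88.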
